A study of Mus musculus with 9 samples.

Results

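The EGF receptor ligands and receptors are 10 genes in these data, namely 7 ligand genes (Areg, Ereg, Hbegf, Tgfa, Epgn, Btc and Egf) and 3 receptor genes (Egfr, Erbb2 and Erbb3). They were chosen by name, through mouse Ensembl identifiers, from 54838 genes in the count tables, and all 10 were found. RNA of the ear, a skin-covered tissue, was read by 3' tag sequencing in 9 libraries of C57BL/6 mice aged 10 weeks, 3 libraries a group. Mdl-1-/- mice with IL-23 minicircle DNA formed one group, wild-type (WT) mice with the same IL-23 DNA another, and WT mice with green fluorescent protein (GFP) DNA the controls. All groups shared a hydrodynamic tail vein injection of 15 µg of minicircle DNA, a DNA circle without bacterial backbone from which injected animals express the encoded protein, here the cytokine interleukin 23 or GFP. MDL-1 is a myeloid cell receptor encoded by Clec5a. No Mdl-1-/- libraries with GFP DNA are in the design, so a genotype difference that exists without IL-23 cannot be told apart from a different response to it. The labels number the libraries 1 to 3 without saying whether different animals gave them, and the p-values therefore cover library-to-library spread, which may be technical.

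EGF family ligands are made as membrane-bound precursors that metalloproteases such as ADAM17 cut free. The freed ligands bind the EGF receptor, which pairs with itself or with a relative (ERBB2, which has no known ligand, or ERBB3, whose kinase is weak and which binds neuregulins) and signals through RAS and ERK. In epidermis, keratinocytes both make these ligands and carry the receptor, and the loop is known for driving keratinocyte growth and migration, in wounds and in psoriasis among others.

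The libraries held 3776188 to 5605713 counts, and the 10 genes together had 1254 to 1558 counts in Mdl-1-/- IL-23 libraries, 1818 to 1850 in WT IL-23 libraries and 887 to 1213 in WT GFP libraries. Basal keratinocyte markers, 10 genes led by Krt14, summed to 8362 to 11279 CPM (counts scaled to library size) in Mdl-1-/- IL-23 libraries, 10993 to 13755 in WT IL-23 libraries and 10329 to 12796 in WT GFP libraries. Of 10 cartilage markers 6 were tested, and all 6 were called as lower in WT IL-23 than in WT GFP ear, against 21.7% of all tested genes. Their list summed to 136 to 191 CPM in Mdl-1-/- IL-23 libraries, 91.6 to 127 in WT IL-23 libraries and 286 to 347 in WT GFP libraries, with 82.6% of it from Sox9, and Matn1 had no count in any group. Clec5a, the targeted gene, had 10, 13 and 5 counts in Mdl-1-/- IL-23 libraries, 17, 21 and 11 in WT IL-23 libraries and 2, 7 and 10 in WT GFP libraries. A 3' tag outside the deleted part does not check the genotype, so the groups are named as labelled. Mitochondrial genes took 11.4% to 12.9% of counts in Mdl-1-/- IL-23 libraries, 8.69% to 8.99% in WT IL-23 libraries and 12.6% to 15.1% in WT GFP libraries, and the part of this difference in the results below was not tested.

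With IL-23 DNA in WT ear, 5 of the 7 ligand genes rose (Epgn, Areg, Hbegf, Tgfa and Ereg), 2 fell (Btc and Egf), and of the 3 receptor genes Erbb2 and Erbb3 rose by less than 2-fold. In bulk ear, more or fewer cells of a type and more or less RNA per cell cannot be told apart. A gene was called when its adjusted p in edgeR's quasi-likelihood test, over 13807 genes tested, was under 0.05. Of the 10 members 9 were called, against 44.7% of all tested genes. In one direction, 7 members were called as higher, against 22.9% of all genes, and 2 as lower, against 21.7%. The median log2 fold change was 3.02 over the 7 ligands and 0.50 over the 3 receptors, and -0.04 over all genes tested. In Mdl-1-/- ear under IL-23, Hbegf, Tgfa and Epgn were lower than in WT ear under IL-23. These were 3 of 10 members, against 17.7% of all genes called and 10.1% called as lower, and 0 members were higher, against 7.58% of all genes (edgeR; also 0 at an unadjusted p under 0.05 and 0 by DESeq2). The members were chosen by name with earlier results of these data known. A median or a count over so few such genes is a description, also for the genotypes. All 10 members passed the filter on low counts. Areg passed it through the IL-23 groups alone and Egf through the GFP group, so a difference was built into their passing. For that reason nothing is read from the number of members called in the comparisons with WT GFP, or from setting it against the share of all genes. The calls of Areg and Egf themselves in comparisons with WT GFP, given below, are descriptions for the same reason.

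**Figure D1:**
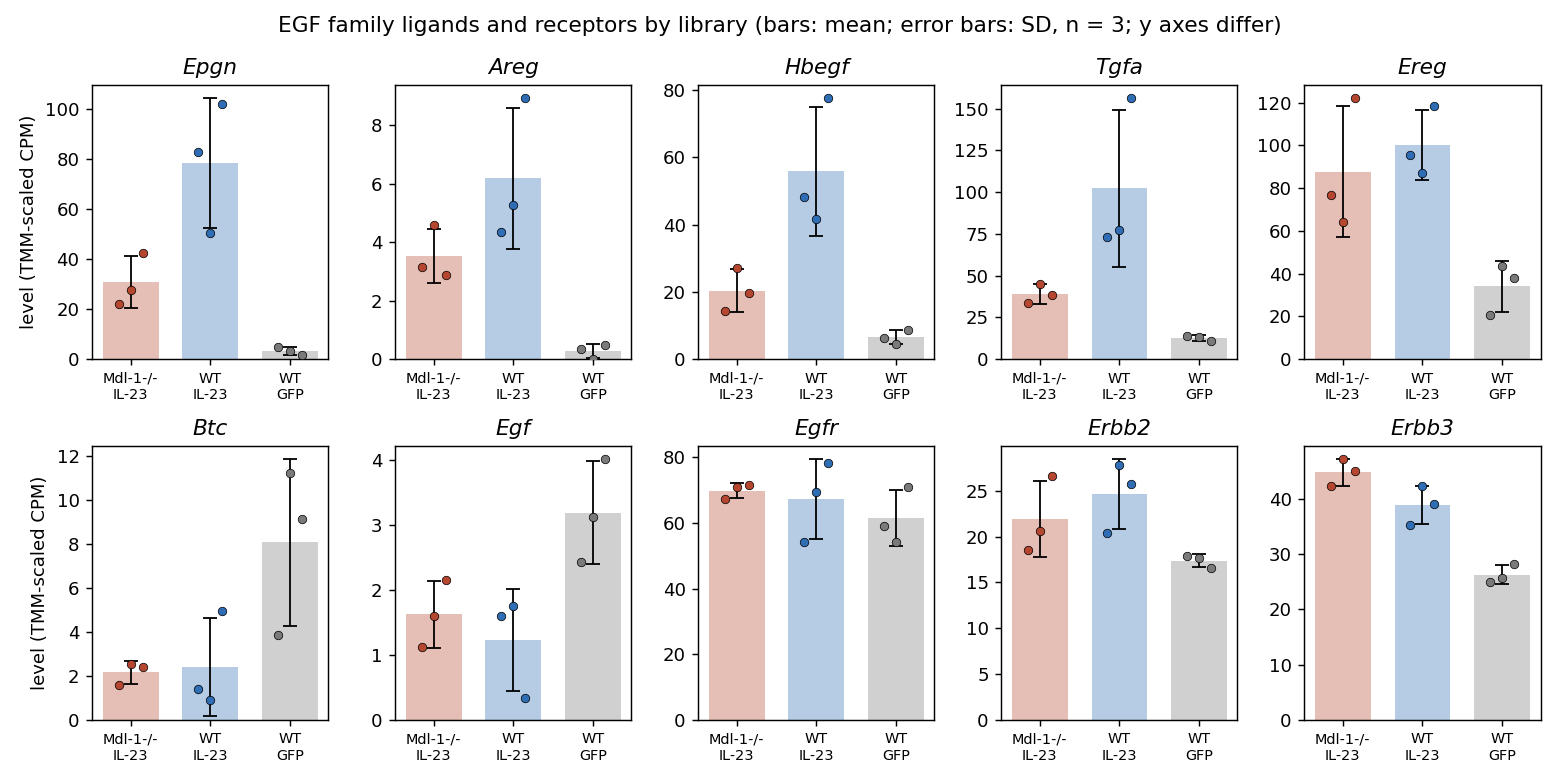
Level of each gene in CPM (counts scaled to library size by TMM), with points for the 3 libraries of a group, bars for the mean and error bars for the SD, on a y axis of its own for each gene. Epgn, Areg, Hbegf, Tgfa and Ereg stand higher in both IL-23 groups than in the GFP group, Btc and Egf stand lower, and the libraries of Egfr overlap in all groups.

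**Figure D2:**
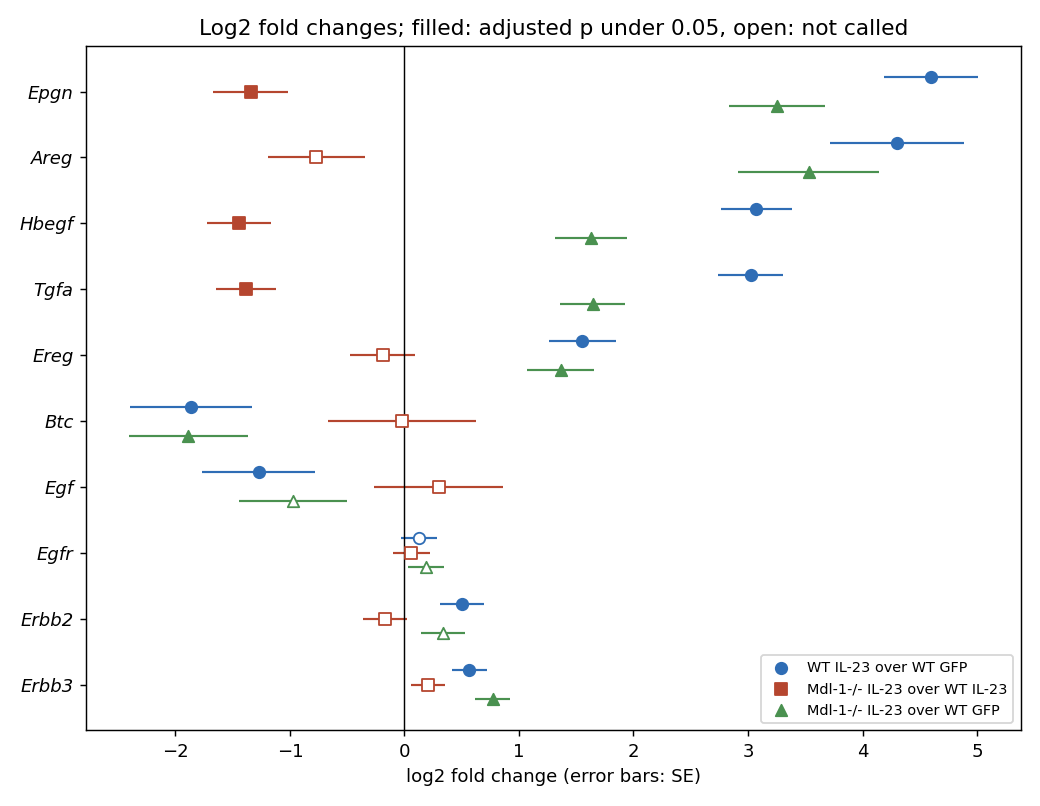
Log2 fold change of each gene (x axis, with SE) in the 3 comparisons, filled where the adjusted p was under 0.05. The Mdl-1-/- over WT differences under IL-23 are filled for Epgn, Hbegf and Tgfa alone, at -1.34, -1.44 and -1.38.

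4 of the ligand genes lie side by side on chromosome 5, and they did not move one way. On GRCm38, Epgn lies at 91027464 to 91035215 on the plus strand, Ereg at 91074622 to 91093646 on the plus strand, Areg at 91139599 to 91148432 on the plus strand and Btc at 91357261 to 91402994 on the minus strand. GENCODE M21 lists 7 genes in this stretch of 375531 bases, and the other 3 are noncoding and had 0, 4 and 3 counts over all 9 libraries. In WT ear with IL-23 DNA, Epgn, Ereg and Areg rose and Btc, the far neighbour on the opposite strand, fell. The promoter sequences of Epgn, Areg, Btc and of Tgfa, which rose and lies on chromosome 6, are shown because these genes moved by large and opposite amounts. They are RefSeq windows on GRCm38.p6, from 250 bases before to 50 bases after the RefSeq start, 5' to 3' on the gene's strand, and 7 of the 10 members had an entry. For Epgn the RefSeq start, at 91027517, lies 53 bases inside the GENCODE gene given above. Positions of matches are counted from the RefSeq start. Capitals mark matches, on either strand, to the letters searched: AP-1 TGANTCA, CRE TGACGTCA, STAT TTCNNNGAA, the GC box GGGCGG and, for the TATA box, the letters TATAAA. The windows lie at chr5:91027267-91027566 (Epgn, plus strand), chr5:91139349-91139648 (Areg, plus strand), chr5:91402945-91403244 (Btc, minus strand) and chr6:86194972-86195271 (Tgfa, plus strand).
Epgn: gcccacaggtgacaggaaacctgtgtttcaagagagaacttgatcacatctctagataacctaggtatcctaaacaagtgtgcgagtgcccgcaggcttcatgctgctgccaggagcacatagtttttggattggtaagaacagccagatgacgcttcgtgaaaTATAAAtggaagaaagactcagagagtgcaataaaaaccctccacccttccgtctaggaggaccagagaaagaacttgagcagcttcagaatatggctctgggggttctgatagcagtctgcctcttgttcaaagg
Areg: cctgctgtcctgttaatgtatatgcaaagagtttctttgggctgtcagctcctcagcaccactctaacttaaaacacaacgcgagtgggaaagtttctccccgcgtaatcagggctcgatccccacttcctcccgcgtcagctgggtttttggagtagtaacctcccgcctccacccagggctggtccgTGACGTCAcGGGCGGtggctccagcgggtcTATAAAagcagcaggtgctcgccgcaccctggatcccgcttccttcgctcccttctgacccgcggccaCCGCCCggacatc
Btc: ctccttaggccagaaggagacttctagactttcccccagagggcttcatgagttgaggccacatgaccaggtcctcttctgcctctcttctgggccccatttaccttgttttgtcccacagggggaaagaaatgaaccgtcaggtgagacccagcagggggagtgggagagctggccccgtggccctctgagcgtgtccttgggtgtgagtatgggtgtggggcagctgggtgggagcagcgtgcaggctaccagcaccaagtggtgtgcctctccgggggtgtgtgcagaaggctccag
Tgfa: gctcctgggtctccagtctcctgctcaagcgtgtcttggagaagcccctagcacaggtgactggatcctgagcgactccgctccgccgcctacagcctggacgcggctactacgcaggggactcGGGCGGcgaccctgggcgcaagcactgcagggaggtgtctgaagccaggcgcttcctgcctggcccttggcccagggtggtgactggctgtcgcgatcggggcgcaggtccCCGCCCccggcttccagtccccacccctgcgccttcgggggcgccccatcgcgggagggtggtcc
The Areg window held a CRE match at base -61, next to a GC box match at -52, and a TATA match at -31, with a further GC box match on the other strand at 38 after the start. The CRE letters were in 1.79% of the 32851 promoter windows of the same length, and TATA in 13.6%. The Epgn window held a TATA match at -86, which is -33 from the GENCODE start of Epgn, the Tgfa window GC box matches at -126 and -15, a match held by 35.7% of all windows, and the Btc window no match. None of the windows of these 4 genes held the AP-1 or STAT letters, which were in 7.81% and 8.30% of all windows. A match is a description of letters and says nothing on whether a factor binds there.

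Epgn, which encodes epigen, a ligand made by epithelia, had a higher log2 fold change in WT ear than the other members, except that without GFP library 3 it stood at 4.24, below Areg at 4.88. Its levels were 22.1, 27.7 and 42.4 CPM in Mdl-1-/- IL-23 libraries, 82.7, 50.4 and 102 CPM in WT IL-23 libraries and 4.87, 3.31 and 1.55 CPM in WT GFP libraries. No group's range overlapped another's, and the Mdl-1-/- libraries lay between both WT groups. Ranges without overlap are common here, and this holds for the genes below too. They were found for 54.6% of all tested genes in WT IL-23 against WT GFP ear. The share was 36.5% between the genotypes under IL-23 and 35.8% in Mdl-1-/- IL-23 against WT GFP ear. The log2 fold change of WT IL-23 over WT GFP was 4.60 (SE 0.41, edgeR adjusted p = 1.45e-05), and that of Mdl-1-/- over WT under IL-23 was -1.34 (SE 0.33, adjusted p = 0.0206). The second call was lost without WT IL-23 library 1 (adjusted p = 0.0530) or 3 (0.0704) and without Mdl-1-/- library 1 (0.0706) or 2 (0.0570), while the difference stayed between -1.63 and -1.11 under all alternatives.

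Hbegf encodes heparin-binding EGF-like growth factor, a ligand of wound keratinocytes and also of macrophages. The gene lies on chromosome 18 at 36504927 to 36515805, minus strand. It stood at 14.3, 27.2 and 19.6 CPM in Mdl-1-/- IL-23 libraries, 48.4, 41.6 and 77.7 CPM in WT IL-23 libraries and 6.26, 4.59 and 8.66 CPM in WT GFP libraries. Every Mdl-1-/- library was below every WT library with IL-23 DNA and above every GFP library. Hbegf rose 8.42-fold with IL-23 DNA in WT ear (log2 fold change 3.07, SE 0.31, adjusted p = 7.84e-06), and in Mdl-1-/- ear under IL-23 it was 2.72-fold lower than in WT (log2 fold change -1.44, SE 0.28, adjusted p = 0.00534).

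Tgfa encodes transforming growth factor alpha, the classical autocrine ligand of keratinocytes, and lies on chromosome 6 at 86195223 to 86275719, plus strand. Its levels were 33.3, 45.1 and 38.6 CPM in Mdl-1-/- IL-23 libraries, 73.1, 77.3 and 156 CPM in WT IL-23 libraries and 13.9, 13.0 and 10.5 CPM in WT GFP libraries. The groups did not overlap, and WT IL-23 library 3 stood apart from the other two of its group. Tgfa rose 8.14-fold with IL-23 DNA in WT ear (log2 fold change 3.02, SE 0.29, adjusted p = 7.58e-06) and was 2.60-fold lower in Mdl-1-/- than in WT ear under IL-23 (log2 fold change -1.38, SE 0.26, adjusted p = 0.00536). Both Hbegf and Tgfa kept these calls in all 18 alternative fits, including the one without WT IL-23 library 3, with differences between the genotypes of -1.69 to -1.13 for Hbegf and -1.57 to -0.94 for Tgfa.

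Ereg encodes epiregulin, which keratinocytes and myeloid cells make. Its levels were 76.7, 64.0 and 122 CPM in Mdl-1-/- IL-23 libraries, 95.3, 86.9 and 118 CPM in WT IL-23 libraries and 20.7, 43.7 and 37.7 CPM in WT GFP libraries. The IL-23 groups of both genotypes overlapped each other and lay above the GFP group. Ereg rose 2.93-fold in WT ear with IL-23 DNA (log2 fold change 1.55, SE 0.30, adjusted p = 0.00172). The log2 difference between Mdl-1-/- and WT ear under IL-23 was -0.19 (SE 0.29, adjusted p = 0.690). Whether the genotype difference of Ereg is smaller than that of Hbegf, Tgfa or Epgn was not tested.

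Areg, the gene of amphiregulin, a ligand of keratinocytes and of several lymphoid and mast cell types, was close to the limit of detection. It had 14, 20 and 12 counts in Mdl-1-/- IL-23 libraries, 19, 24 and 27 counts in WT IL-23 libraries and 2, 0 and 3 counts in WT GFP libraries. For GFP library 2, where Areg had 0 counts, a level of 0.630 CPM (3 counts, counting error only) cannot be told from none. The libraries with IL-23 DNA all exceeded the GFP libraries, and in CPM the ranges of the genotypes overlapped, at 2.88 to 4.57 in Mdl-1-/- and 4.35 to 8.93 in WT. The log2 fold change of WT IL-23 over WT GFP was 4.30 (SE 0.59, adjusted p = 3.66e-05), and that of Mdl-1-/- over WT under IL-23 was -0.77 (SE 0.42, adjusted p = 0.216).

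Btc, the gene of betacellulin, which also activates ERBB4, moved the other way from its neighbours. It had 7, 11 and 10 counts in Mdl-1-/- IL-23 libraries, 6, 4 and 15 counts in WT IL-23 libraries and 22, 61 and 59 counts in WT GFP libraries. In CPM, WT IL-23 library 3 (4.96) exceeded GFP library 1 (3.83), so these groups overlapped, while all Mdl-1-/- libraries lay below all GFP libraries. Btc fell 3.65-fold in WT ear (log2 fold change -1.87, SE 0.53, adjusted p = 0.0109), and this call was lost without WT IL-23 library 1 (adjusted p = 0.0517) or 2 (0.0557). The genotypes under IL-23 differed by -0.02 on the log2 scale (SE 0.64, adjusted p = 0.987).

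Egf itself, the founding ligand, was the other ligand that fell. It had 5, 7 and 9 counts in Mdl-1-/- IL-23 libraries, 7, 8 and 1 counts in WT IL-23 libraries and 14, 17 and 26 counts in WT GFP libraries. Both IL-23 groups lay below the GFP group in CPM without overlap. The log2 fold change in WT ear was -1.27 (SE 0.50, adjusted p = 0.0465), a call lost in 12 of 17 alternative fits, and the genotypes under IL-23 differed by 0.30 (SE 0.56, adjusted p = 0.756). The authors' deposited table gives Egf a false discovery rate of 0.0959 in the same comparison, and Erbb2, described next, one of 0.161.

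The receptors had smaller log2 fold changes than the ligands that rose, a contrast that was not tested. Egfr, the common receptor of all these ligands, lies on chromosome 11 at 16752203 to 16918158, plus strand. It stood at 67.3, 70.9 and 71.4 CPM in Mdl-1-/- IL-23 libraries, 54.1, 69.4 and 78.4 CPM in WT IL-23 libraries and 59.2, 54.2 and 70.8 CPM in WT GFP libraries. All groups overlapped, and the log2 differences were 0.13 for WT IL-23 over WT GFP (SE 0.16, adjusted p = 0.541) and 0.06 for Mdl-1-/- over WT under IL-23 (SE 0.16, adjusted p = 0.838). Erbb3 (chromosome 10, 128567523 to 128589652, minus strand) stood at 42.3, 47.1 and 45.0 CPM in Mdl-1-/- IL-23 libraries, 35.3, 42.3 and 39.0 CPM in WT IL-23 libraries and 24.9, 25.7 and 28.2 CPM in WT GFP libraries. Both IL-23 groups lay above the GFP group without overlap, and Erbb3 rose 1.48-fold in WT ear (log2 fold change 0.56, SE 0.15, adjusted p = 0.00699), a call kept in all 18 alternatives. Under IL-23 the lowest Mdl-1-/- library and the highest WT library were both at 42.3 CPM, and the genotypes differed by 0.21 (SE 0.15, adjusted p = 0.367).

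Erbb2, on chromosome 11 at 98412470 to 98437716, plus strand, stood at 18.6, 20.6 and 26.6 CPM in Mdl-1-/- IL-23 libraries, 20.4, 27.8 and 25.8 CPM in WT IL-23 libraries and 17.9, 17.6 and 16.6 CPM in WT GFP libraries. It rose 1.42-fold in WT ear with IL-23 DNA (log2 fold change 0.50, SE 0.19, adjusted p = 0.0426), a call lost in 10 of 18 alternatives, among them upper-quartile scaling (adjusted p = 0.150) and DESeq2 (0.0514). The genotype difference under IL-23 was -0.17 (SE 0.19, adjusted p = 0.578). The 3' end of Erbb2 overlaps that of Mien1 on the other strand by 9 bases, and Mien1 also rose in WT ear (log2 fold change 0.75, adjusted p = 0.00313). As the strand setting of the counting is not given, reads at that end cannot be told apart, and the same holds for the stretch that Egfr shares with its antisense gene Egfros, which had 23 to 45 counts in Mdl-1-/- IL-23 libraries, 21 to 36 in WT IL-23 libraries and 41 to 58 in WT GFP libraries.

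Compared directly with WT GFP ear, Mdl-1-/- ear with IL-23 DNA showed 7 of the 10 members called, 6 higher and 1 lower, against 17.1% of all genes called, 10.2% higher and 6.93% lower. This comparison differs in both genotype and injected DNA, and shares the GFP libraries with the WT comparison and the Mdl-1-/- libraries with the genotype comparison. Its log2 fold changes were 3.53 for Areg (SE 0.62, adjusted p = 0.00113), 3.25 for Epgn (SE 0.42, adjusted p = 0.000614) and 1.36 for Ereg (SE 0.29, adjusted p = 0.0102). They were 1.64 for Tgfa (SE 0.28, adjusted p = 0.00216) and 1.63 for Hbegf (SE 0.32, adjusted p = 0.00371). Erbb3 was also higher (0.77, SE 0.15, adjusted p = 0.00252) and Btc lower (-1.89, SE 0.52, adjusted p = 0.0216), the Btc call being lost without GFP library 2 or 3 and without any one of the Mdl-1-/- libraries (adjusted p = 0.0593 to 0.0759). Egf (-0.98, SE 0.47, adjusted p = 0.170), Erbb2 (0.33, SE 0.19, adjusted p = 0.251) and Egfr (0.19, SE 0.16, adjusted p = 0.457) were not called.

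The 7 ligand genes can also be set side by side as shares of their summed counts. A 3' tag protocol reads each transcript near its end, so counts of different genes were set side by side without division by length. The 7 ligands summed to 152, 173 and 230 CPM in Mdl-1-/- IL-23 libraries, 307, 264 and 469 CPM in WT IL-23 libraries and 52.4, 79.0 and 72.1 CPM in WT GFP libraries, with no overlap between groups. The 3 receptors summed to 128, 139 and 143 CPM in Mdl-1-/- IL-23 libraries, 110, 139 and 143 CPM in WT IL-23 libraries and 102, 97.5 and 116 CPM in WT GFP libraries. Ereg held 37.1% to 53.1% of ligand counts in Mdl-1-/- IL-23 libraries, 25.3% to 32.9% in WT IL-23 libraries and 39.5% to 55.3% in WT GFP libraries. Epgn held 14.5% to 18.4% in Mdl-1-/- IL-23 libraries, 19.1% to 27.0% in WT IL-23 libraries and 2.15% to 9.30% in WT GFP libraries. Btc held 1.03% to 1.46% in Mdl-1-/- IL-23 libraries, 0.332% to 1.06% in WT IL-23 libraries and 7.31% to 14.2% in WT GFP libraries. These sums and shares are descriptions without a test.

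**Figure D3:**
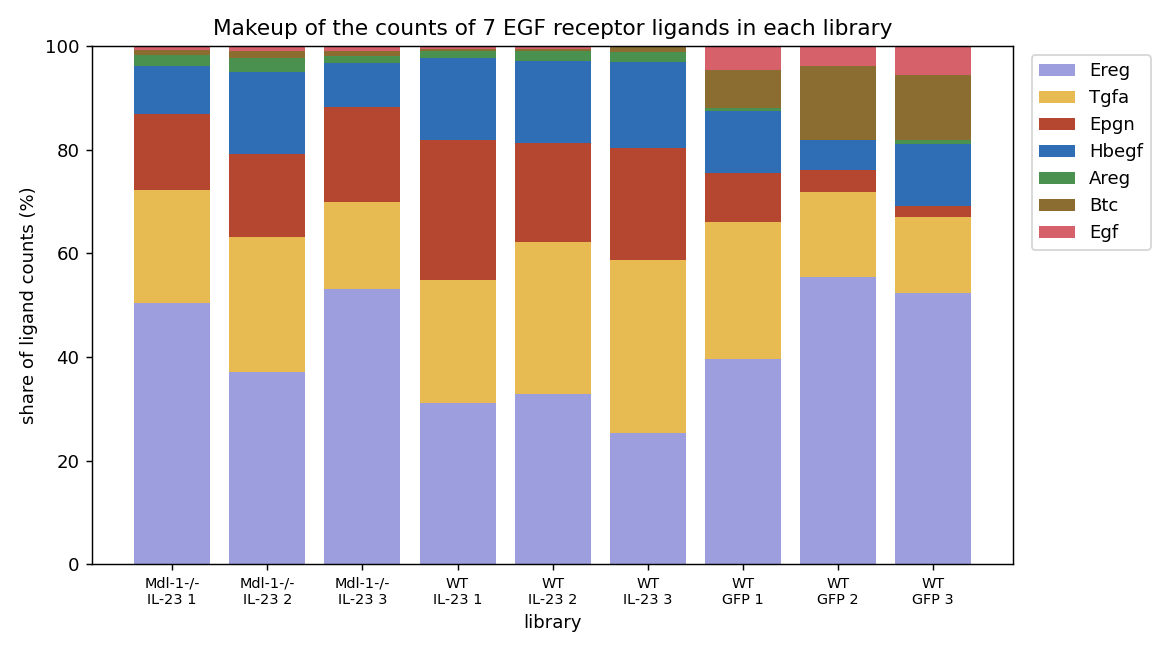
Share of each ligand (y axis, in percent) in the counts of the 7 ligand genes, for each of the 9 libraries. Ereg takes the largest part in each library except WT IL-23 library 3, where Tgfa holds 33.4% against 25.3% for Ereg, and Btc and Egf are prominent in the WT GFP libraries alone.

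Within a group the members did not share 1 highest library. Among WT IL-23 libraries, library 3 was the highest for 7 members (Areg, Ereg, Hbegf, Tgfa, Epgn, Btc and Egfr). Among Mdl-1-/- libraries, library 2 was the highest for 5 members (Areg, Hbegf, Tgfa, Btc and Erbb3) and library 3 for the other 5. Markers of wound keratinocytes moved in the direction of Hbegf, Tgfa and Epgn. Ereg and Areg rose too but were not called between the genotypes. All 10 of these markers were called as higher in WT IL-23 than in WT GFP ear, against 22.9% of all tested genes. In Mdl-1-/- ear 6 of 10 were called as lower than in WT ear under IL-23, against 10.1%. The summed level of the 10 markers was 9658, 33115 and 16438 CPM in Mdl-1-/- IL-23 libraries, 53579, 62426 and 104715 CPM in WT IL-23 libraries and 570, 687 and 387 CPM in WT GFP libraries, with 57.9% of it from S100a8 and no marker at 0 in any group. S100a8 and S100a9 are also in the list of neutrophil markers below, so the sums of both lists share them.

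Of 10 markers of differentiating keratinocytes, all tested, 8 were called as higher and 1 as lower in WT IL-23 than in WT GFP ear, and 3 as higher and 1 as lower in Mdl-1-/- than in WT ear under IL-23. They summed to 19490 to 23760 CPM in Mdl-1-/- IL-23 libraries, 11433 to 12532 in WT IL-23 libraries and 3420 to 6538 in WT GFP libraries, with 59.2% of it from Krt10 and no marker at 0. This sum was thus higher in each Mdl-1-/- library than in any WT IL-23 library, while Hbegf, Tgfa and Epgn were lower. Markers of other cell types moved as well. Beside the marker counts of this paragraph, 22.9% of all tested genes were called as higher and 21.7% as lower in WT IL-23 than in WT GFP ear. Between the genotypes under IL-23, 7.58% were called as higher and 10.1% as lower in Mdl-1-/- ear. Of 10 macrophage and monocyte markers 8 were tested, 3 called as higher and 1 as lower in WT IL-23 than in WT GFP ear, and 1 as higher in Mdl-1-/- than in WT ear under IL-23. They summed to 330 to 392 CPM in Mdl-1-/- IL-23 libraries, 293 to 379 in WT IL-23 libraries and 108 to 162 in WT GFP libraries. Of 10 neutrophil markers 8 were tested, and 8 were higher in WT IL-23 than in WT GFP ear and 3 lower in Mdl-1-/- than in WT ear under IL-23. Their sum was 6678 to 25970 CPM in Mdl-1-/- IL-23 libraries, 34956 to 74308 in WT IL-23 libraries and 241 to 367 in WT GFP libraries, of which S100a8, a gene that keratinocytes also express, gave 80.3%. The neutrophil granule gene Ltf was at 0 in the Mdl-1-/- IL-23 and WT GFP groups, and Ngp in the Mdl-1-/- IL-23 group. Beside the fall of Btc and Egf, all 10 sebaceous gland markers and all 9 tested adipocyte markers, of 10 listed, were called as lower in WT IL-23 than in WT GFP ear. Sebaceous markers summed to 2005 to 2668 CPM in Mdl-1-/- IL-23 libraries, 1437 to 2502 in WT IL-23 libraries and 4405 to 5416 in WT GFP libraries. Adipocyte markers summed to 317 to 427 CPM in Mdl-1-/- IL-23 libraries, 285 to 576 in WT IL-23 libraries and 981 to 1597 in WT GFP libraries. No sebaceous or adipocyte marker was at 0 in any group. Of 8 markers of dendritic and Langerhans cells 6 were tested, 5 of them higher in WT IL-23 than in WT GFP ear, with sums of 275 to 377 CPM in Mdl-1-/- IL-23 libraries, 224 to 294 in WT IL-23 libraries and 77.8 to 105 in WT GFP libraries. Of 9 mast cell markers 5 were tested, and in WT IL-23 against WT GFP ear 1 was higher and 3 lower (median log2 fold change -2.30). In Mdl-1-/- ear under IL-23, 3 were higher and 1 lower than in WT ear (median 1.70). Their list summed to 17.3 to 51.9 CPM in Mdl-1-/- IL-23 libraries, 125 to 158 in WT IL-23 libraries and 33.4 to 39.6 in WT GFP libraries. Hdc gave 79.5% of it, and the sum moved opposite to most of the tested markers in both comparisons. The part of these cell types in the changes of the ligands was not tested.

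Of 9 tested genes for ligand shedding, 4 rose and 1 fell with IL-23 DNA in WT ear (median log2 fold change 0.33), against 22.9% of all tested genes called as higher and 21.7% as lower. Adam17 encodes a protease that frees several of these ligands. It rose to 51.1 ± 5.56 CPM in WT IL-23 ear, against 27.3 ± 1.83 in WT GFP ear (SD, n = 3). Its log2 fold change was 0.90 (edgeR adjusted p = 0.000534). Rhbdf2, whose product iRhom2 carries ADAM17 to the cell surface, rose 2.31-fold (adjusted p = 0.000219). Timp3, the gene of an inhibitor of ADAM17, fell 4.99-fold (adjusted p = 3.76e-05). In Mdl-1-/- ear under IL-23 Timp3 was 2.24-fold higher than in WT, at 7.78 ± 2.76 against 3.39 ± 1.14 CPM (SD, n = 3; adjusted p = 0.0290), the 1 gene of the 9 that was called, against 7.58% of all genes called as higher, and this call was lost without WT IL-23 library 2 (0.0973) or 3 (0.0945), without Mdl-1-/- library 1 (0.152) and with limma voom (0.0716).

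Nrg1, the gene of neuregulin 1, a ligand of ERBB3 and ERBB4, rose in WT ear and was lower in Mdl-1-/- ear under IL-23. It averaged 4.01 ± 1.37 CPM in Mdl-1-/- IL-23 ear, 10.7 ± 4.54 in WT IL-23 ear and 0.532 ± 0.382 in WT GFP ear (SD, n = 3). Like Areg, Nrg1 passed the filter on low counts through the IL-23 groups alone, so its calls against WT GFP are descriptions. Its log2 fold change was 4.28 for WT IL-23 over WT GFP (SE 0.52, adjusted p = 1.28e-05) and -1.38 for Mdl-1-/- over WT under IL-23 (SE 0.40, adjusted p = 0.0271), the genotype call being lost when WT IL-23 library 3 (0.139) or Mdl-1-/- library 1 (0.106) or 3 (0.0613) was left out. Nrg4 and Nrg2, further neuregulin genes, fell 2.25-fold (adjusted p = 0.00506) and 2.37-fold (0.0234) in WT ear, the Nrg2 call being lost with DESeq2 (0.0526), without a count filter (0.0539) and without GFP library 1 (0.0502) or 2 (0.0789) or WT IL-23 library 2 (0.0774) or 3 (0.0606). Of the 5 genes listed here 3 were tested, and Nrg3 had no count in either IL-23 group.

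Of 17 tested genes for feedback and turnover of the receptor, 4 rose and 4 fell in WT ear with IL-23 DNA (median log2 fold change -0.33). These counts are near the shares of all tested genes, 22.9% higher and 21.7% lower. Dusp5 and Dusp6, phosphatase genes that ERK activity induces and whose products switch ERK off, rose 4.26-fold (adjusted p = 3.66e-05) and 2.07-fold (0.000264). Spred2 and Spred1, inhibitors of RAS to ERK signalling, fell 2.01-fold (adjusted p = 0.00155) and 1.54-fold (0.00542). Under IL-23, Dusp6 stood at 58.4 ± 3.40 CPM in Mdl-1-/- ear and 58.4 ± 14.0 CPM in WT ear (SD, n = 3). In that genotype comparison Cblc, which encodes a ubiquitin ligase of epithelia, was 2.40-fold lower (adjusted p = 0.0131), while the ubiquitin ligase gene Cbl was 1.44-fold higher (0.0332) and Socs4 1.58-fold higher (0.0453). The Cblc call was lost without Mdl-1-/- library 3 (0.0555), and the Cbl call without any IL-23 library but WT 1 (0.0502 to 0.118). The Socs4 call was lost without any IL-23 library but WT 3 (0.0625 to 0.151), with limma voom (0.0548) and with non-robust dispersions (0.0507).

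Of 22 tested genes of the chain from receptor to ERK, 5 rose and 2 fell in WT ear (median log2 fold change -0.04). The count that rose is near the 22.9% of all tested genes called as higher, and the count that fell is below the 21.7% called as lower. Stat3, a transcription factor that cytokine receptors also activate, rose 2.88-fold (adjusted p = 6.93e-06) and Mapk3, the gene of ERK1, rose 2.57-fold (1.32e-05). Braf, the gene of a kinase between RAS and ERK, fell 1.35-fold (adjusted p = 0.0491). The Braf call was lost in 13 of 18 alternatives, among them every library left out but WT IL-23 library 3 (0.0539 to 0.216). In Mdl-1-/- ear under IL-23 Mapk3 was 1.80-fold lower than in WT ear (adjusted p = 0.00379) and Stat3 1.53-fold lower (0.0212), while Nras was 1.54-fold higher (0.0133). The Mapk3 call was kept in all alternatives. The Stat3 call was lost without WT IL-23 library 2 or 3 or Mdl-1-/- library 1 or 3 (0.0672 to 0.103), and the Nras call when library 2 of WT IL-23 (0.0586) or library 1 of Mdl-1-/- IL-23 (0.0612) was left out.

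Of 13 tested genes listed as ERK targets besides the ligands, 5 rose and 4 fell in WT ear (median log2 fold change 0.63), against 22.9% and 21.7% of all tested genes. Ier3, an early response gene, rose to 284 ± 32.1 CPM in WT IL-23 ear, against 57.8 ± 11.4 in WT GFP ear (SD, n = 3; adjusted p = 3.41e-07), and Phlda1 rose 2.98-fold (0.000213). Mmp3, a matrix protease gene, and Emp1, a membrane protein gene of epithelia, fell 2.84-fold (adjusted p = 0.000131) and 2.11-fold (0.000137). In Mdl-1-/- ear under IL-23, 4 were lower and 2 higher, against 10.1% and 7.58% of all tested genes. Ier3 was 2.48-fold lower than in WT ear (adjusted p = 0.000891) and Plaur, the gene of the urokinase receptor, 6.93-fold lower (0.00618). The Plaur fold change is imprecise (log2 SE 0.56). The gene passed the filter on low counts through the WT IL-23 group alone, so a difference was built into its passing. Its call is therefore a description, and the counts of 5 that rose and 4 that were lower include it. Plaur stood at 1.73 ± 1.68 CPM in Mdl-1-/- IL-23 ear, its lowest library at 0, and at 12.3 ± 0.862 in WT IL-23 ear (SD, n = 3). Emp1 was 2.33-fold higher (adjusted p = 0.00107) and Mmp3 1.70-fold higher (0.0406), the Mmp3 call being lost with limma voom (0.0992) and without any IL-23 library but Mdl-1-/- library 1 (0.0651 to 0.150).

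**Figure D4:**
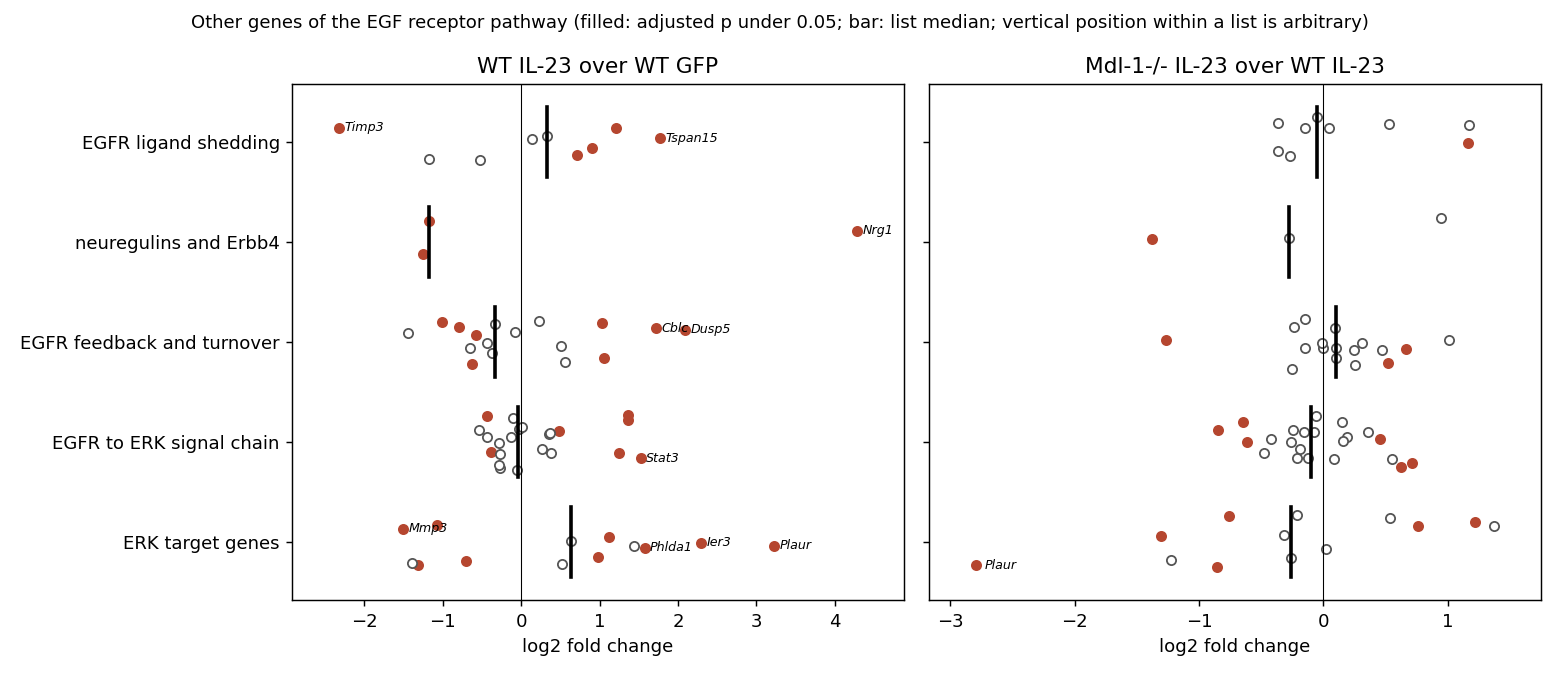
Log2 fold change (x axis) of the tested genes of 5 pathway lists, for WT IL-23 over WT GFP (left) and Mdl-1-/- over WT under IL-23 (right), filled where the adjusted p was under 0.05, with a bar at each list's median. The medians lie between -1.17 and 0.63 on the left and between -0.27 and 0.10 on the right, with Nrg1 farthest right on the left panel.

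In the comparison with WT GFP, Mdl-1-/- ear with IL-23 DNA had 3 genes higher and 1 lower for shedding, 1 higher and 1 lower among neuregulins and 3 higher and 2 lower for feedback. It had 4 higher in the chain to ERK and 2 higher and 2 lower among ERK targets, against 10.2% and 6.93% of all tested genes. Of those called, the ones with the lowest adjusted p in each list and direction, at most 2, are named. Nrg1 (2.90), Dusp5 (1.85), Map2k1, the gene of MEK1 (1.12), Dusp6 (1.05), Ier3 (0.99), Rhbdf2 (0.94), Stat3 (0.91), Adam10, a second shedding protease (0.76), and Egr1, an early response gene (0.72), were higher, with log2 fold changes in parentheses. Nrg4 (-1.45), Timp3 (-1.16), Il33, an alarmin gene (-0.91), Spred2 (-0.77), Mmp3 (-0.74) and Spred1 (-0.52) were lower. Their edgeR adjusted p-values ran from 0.000435 for Dusp5 to 0.0342 for Spred1. The Nrg1 call is a description, as said above. Leaving out 1 library ended the calls of Adam10 (Mdl-1-/- library 2, 0.0935), Egr1 (GFP 3 or Mdl-1-/- 2, 0.0777 to 0.0818) and Timp3 (GFP 3, Mdl-1-/- 2 or 3, 0.0504 to 0.0726). It also ended those of Il33 (GFP 2 or 3, Mdl-1-/- 2 or 3, 0.0697 to 0.0944), Spred2 (GFP 1 or 3, Mdl-1-/- 2 or 3, 0.0698 to 0.111), Mmp3 (any GFP library or Mdl-1-/- 1, 0.0628 to 0.102) and Spred1 (any GFP library, WT IL-23 2, Mdl-1-/- 2 or 3, 0.0556 to 0.156).

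The tested genes most like Epgn across the 9 libraries, by the root mean square difference of centred log2 CPM among 5973 genes of at least 20 CPM on average, were Prss22 (0.26), Slc1a1 (0.47), Prss27 (0.49), Slc7a11 (0.51) and Il1f9 (0.52). Prss22 and Prss27 encode serine proteases, Slc1a1 and Slc7a11 amino acid transporters and Il1f9 the cytokine IL-36 gamma. Their log2 fold changes of WT IL-23 over WT GFP were 4.75, 5.40, 5.10, 5.09 and 3.70 in that order. Those most like Egfr were Tmem30b (0.074), Gm10268 (0.090), Pdpk1 (0.091), Ipo7 (0.097) and Spcs1 (0.10), with log2 fold changes from 0.10 to 0.21. The distances are smaller for Egfr, whose levels varied little, and are descriptions over libraries of 3 groups.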

How the data were processed

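Reads of 3' tag libraries were counted by the authors with STAR 2.7.0a and featureCounts, per the submitters' processing notes, which name the build as GRCh38.p6. That is a human name, while the gene identifiers are mouse, so the build used is uncertain; the labels and notes leave the annotation, strand and multi-mapping settings unstated. The deposited tables hold raw counts of 54838 genes, 0 values differed where a library stood in 2 tables, and they were joined. The authors' deposited edgeR tables hold log2 fold changes and p-values with false discovery rates; in the one for the genotypes all 10 members have the sign opposite to that used here (WT over Mdl-1-/-). Symbols and positions came from GENCODE M21 (GRCm38).

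Counts were filtered with filterByExpr (minimum count 10, minimum total 15), leaving 13807 genes, TMM-scaled (trimmed mean of M-values), and fitted with edgeR 4.0.16 (R 4.3.3) as 3 group means over 9 libraries with robust dispersions. Adjusted p-values are Benjamini-Hochberg over all tested genes, SEs come from the F statistic, and CPM are TMM-scaled. The procedure was run on simulated data with far fewer changed genes than were called here and the same dispersion for all genes. That run does not check the scaling or the error rate in these data. Alternatives were upper-quartile and RLE scaling, DESeq2 1.42.0, limma 3.58.1 voom, other filters and dispersions, 2-group fits, a replicate block and leaving out each library. Libraries of a group differed by more than sampling noise (chi-square per gene of 4.60 or more). The members and gene lists were chosen with earlier results of these data known. Named genes are all members, the 2 with the smallest adjusted p in each direction per pathway list and comparison, the 5 genes most like Epgn and Egfr, and Clec5a (1 gene that the rule names is not reported here); Egfros and Mien1 were added as overlapping genes after their values were seen, as were the chromosome 5 neighbours.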

Additional observations from a re-analysis of the deposited data

How the results depend on the processing

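Epgn, Hbegf, Tgfa, Ereg and Erbb3 kept their calls as higher with IL-23 DNA in WT ear under every alternative, and Hbegf and Tgfa their calls as lower in Mdl-1-/- ear. Areg kept its call in WT ear wherever it was tested, but it passed the count filter through the IL-23 groups alone. Nothing is therefore read from that. Areg, Btc and Egf could not be fitted under a filter set to 30 counts. It left 7 members, of which 5 were called in WT ear. With upper-quartile scaling the median log2 fold change over all genes shifted by -0.15 in WT IL-23 over WT GFP. The share of calls that were higher was 38.9% against 51.3% with TMM in that comparison, 53.2% against 42.9% for the genotypes and 43.7% against 59.4% for Mdl-1-/- IL-23 over WT GFP. In WT IL-23 over WT GFP Egfr turned to -0.028, Gm10268 to -0.054 and Pdpk1 to -0.060, and for the genotypes Btc turned to 0.036 (0.33 with limma voom); none of these was called.

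Leaving out 1 library gave 6 to 9 members called in WT IL-23 over WT GFP, 2 to 3 for the genotypes and 6 to 7 for Mdl-1-/- IL-23 over WT GFP. Genes called ran from 4592 to 6240, 1116 to 2806 and 1328 to 2564 in that order. The genotype count was 1116 and 1295 on leaving out WT IL-23 library 2 or 3, and 1165 and 1353 on leaving out Mdl-1-/- library 1 or 3. The count for Mdl-1-/- IL-23 over WT GFP was 1328 without GFP library 3 and 1354 without Mdl-1-/- library 2. Differences between the genotypes that changed sign ran from -0.44 to 0.94 for Btc, -0.043 to 0.62 for Egf, -0.078 to 0.19 for Egfr and -0.49 to 0.0054 for Ereg, and those of WT IL-23 over WT GFP from -0.0038 to 0.18 for Pdpk1 and -0.0082 to 0.32 for Spcs1. The cause was not tested. For the other named genes, 86 of 1004 refitted values lost a call, where the 1004 include values of genes that had no call to lose.

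Same-numbered libraries of different groups correlated in their deviations at -0.086 to 0.23, over 0.1 in 2 of 9 pairs. In both other groups, 1 of 9 libraries correlated best with the library of its own number. As deviations from means of 3 libraries, these values do not settle whether same-numbered libraries shared a batch. With a replicate block 6257, 2800 and 2682 genes were called in the same order, and 8, 3 and 7 members. Btc, Egf and Areg rest on few counts, which limits the precision of their fold changes.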
